A study of Mus musculus with 12 samples.

Results

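CpG methylation was examined at 10 genes that encode core transcription regulators of the heart: Nkx2-5, Isl1, Gata4, Gata6, Tbx5, Tbx20, Hand1, Hand2, Mef2c and Myocd. The genes were chosen by name, by a rule that uses no methylation value. A CpG position was assigned to a gene when it lay inside the annotated gene or within 5 kb of either end on the GRCm38 assembly and had a methylation value in all 12 samples. This gave 391 positions out of 312650 with values in all 12 samples, and 447 out of 421177 when positions with missing values were counted. Rows of the table were counted as positions, and 6 pairs of the 391 lay 1 bp apart and may be both strands of one CpG. The DNA came from the left ventricle of wild-type FVB/N mouse offspring killed at 3 weeks of age, and reduced representation bisulfite sequencing (RRBS) was used, in which the enzyme MspI cuts at CCGG so that CpG-rich fragments are preferentially read. In one group the mothers ate a high-fat diet (HFD) from 6 weeks of age, and in the other a regular diet (RD). All mothers were mated, after 8 weeks of the diet, with males fed RD. There were 3 daughters and 3 sons of HFD mothers, against 4 daughters and 2 sons of RD mothers. The mothers stayed on their diets through pregnancy and suckling, so the period at which a diet might act cannot be told apart, and the labels do not give the number of mothers. The fits below treat the 12 offspring as independent. If littermates are among them, the p-values can be too small and the intervals too narrow.

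These proteins act as a network in the embryonic heart tube. NKX2-5 and ISL1 are homeodomain factors, GATA4 and GATA6 are zinc finger factors, TBX5 and TBX20 are T-box factors, HAND1 and HAND2 are basic helix-loop-helix factors, MEF2C is a MADS-box factor of muscle, and myocardin (Myocd) is a coactivator that binds serum response factor. Genes of developmental regulators often carry CpG islands, which are dense runs of CpG that usually remain unmethylated whether or not the gene is transcribed, while CpGs in the rest of the genome are mostly methylated. RNA was not among the data used here, so methylation cannot be set beside transcription.

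The promoters of 4 genes are shown because they differ in CpG content and in whether any position in them was measured. Each is the stretch of 250 bases before a gene start on the gene's own strand, 5′ to 3′, from RefSeq on GRCm38.p6, with every CG in capitals. The table of promoters held 5 of the 10 genes (Nkx2-5, Isl1, Tbx20, Hand2 and, with 3 starts, Mef2c).
Isl1 promoter: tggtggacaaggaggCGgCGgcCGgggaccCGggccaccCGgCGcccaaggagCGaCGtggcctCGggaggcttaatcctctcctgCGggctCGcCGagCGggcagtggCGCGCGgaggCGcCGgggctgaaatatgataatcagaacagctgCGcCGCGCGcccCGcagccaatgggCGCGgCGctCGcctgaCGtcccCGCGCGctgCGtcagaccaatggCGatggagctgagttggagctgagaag
Hand2 promoter: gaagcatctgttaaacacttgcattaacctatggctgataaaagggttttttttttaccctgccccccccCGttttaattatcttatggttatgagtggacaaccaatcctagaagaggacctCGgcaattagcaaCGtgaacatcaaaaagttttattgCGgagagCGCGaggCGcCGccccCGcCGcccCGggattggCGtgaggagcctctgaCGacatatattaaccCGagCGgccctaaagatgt
Nkx2-5 promoter: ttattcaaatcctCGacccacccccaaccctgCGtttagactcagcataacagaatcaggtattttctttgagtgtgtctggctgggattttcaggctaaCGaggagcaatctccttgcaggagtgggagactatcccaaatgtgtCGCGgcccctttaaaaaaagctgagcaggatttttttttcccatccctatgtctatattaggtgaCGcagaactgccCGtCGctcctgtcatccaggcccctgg
Mef2c promoter: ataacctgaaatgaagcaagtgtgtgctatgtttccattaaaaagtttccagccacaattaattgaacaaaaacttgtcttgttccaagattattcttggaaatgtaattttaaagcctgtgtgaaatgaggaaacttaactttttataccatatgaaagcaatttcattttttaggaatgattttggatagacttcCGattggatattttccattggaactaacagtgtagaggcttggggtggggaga

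The Isl1 promoter (chr13:116309689-116309938, minus strand) held 33 CGs and 4 copies of CCGG. In it 11 positions were measured (with a value in all 12 samples, here and below) at 11 different CGs, with a mean methylation of 1.02% over the 12 samples, a highest position of 2.85% and a range over samples of 0.329% to 4.24%. The Hand2 promoter (chr8:57320733-57320982, plus strand) held 15 CGs and 1 CCGG but no measured position, and the nearest lay 121 bp past the start. The Nkx2-5 promoter (chr17:26841566-26841815, minus strand) held 8 CGs and no CCGG, and its nearest measured position was 576 bp away. The promoter of the first Mef2c start (chr13:83503784-83504033, plus strand) held 1 CG and no CCGG, with the nearest measured position 20524 bp away. The Tbx20 promoter, not shown, held 22 CGs and 3 copies of CCGG without a measured position. Both motifs read the same on the 2 strands, and each CCGG contains one CG. Among all 32851 promoters of this length in the table, 92.1% held a CG, with a median of 6, and 47.1% held CCGG. The Isl1 promoter was therefore the only one of these 5 genes' promoters with methylation values, and the absence of values elsewhere says nothing about their methylation.

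The 10 genes were mostly unmethylated where they were read. Of the 391 positions, 270 (69.1%) had a mean under 10% over the 12 samples, 83 (21.2%) lay at 10 to 50%, and 38 (9.72%) reached 50% or more. Over all 306534 autosomal positions with complete values the shares were 48.7%, 10.8% and 40.5%. By gene, Gata6 and Mef2c were the exceptions, with 38.2% and 37.5% of their positions under 10%. By sample the number under 10% was 239 in RD female 1, the fewest, and 250 to 278 in the other 11. RD female 1 also had the highest mean over the 391 positions, 15.5%, where the lowest was 13.95%. The comparison with all positions is a description, since neighbouring positions share reads and the genes were not drawn at random. The mean of each gene over its positions ran from 4.05% at Nkx2-5 and 6.17% at Isl1, through 6.47% at Hand2, 10.8% at Tbx5, 14.3% at Tbx20, 14.5% at Gata4, 19.3% at Hand1 and 21.7% at Gata6, to 33.8% at Myocd and 52.6% at Mef2c. The ranges over the 12 samples of Nkx2-5 (3.06 to 4.94%) and Isl1 (5.01 to 7.09%) fell within that of Hand2 (2.38 to 13.9%), and neighbours further up overlapped too, including Tbx5, Tbx20 and Gata4 and the pair of Hand1 and Gata6. Myocd (32.6 to 35.2%) and Mef2c (45.7 to 57.0%) each stood above every sample of the genes before them. The order depends on which fragments were read, because a gene's mean mixes CpG-island and other positions in different proportions.

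**Figure D1:**
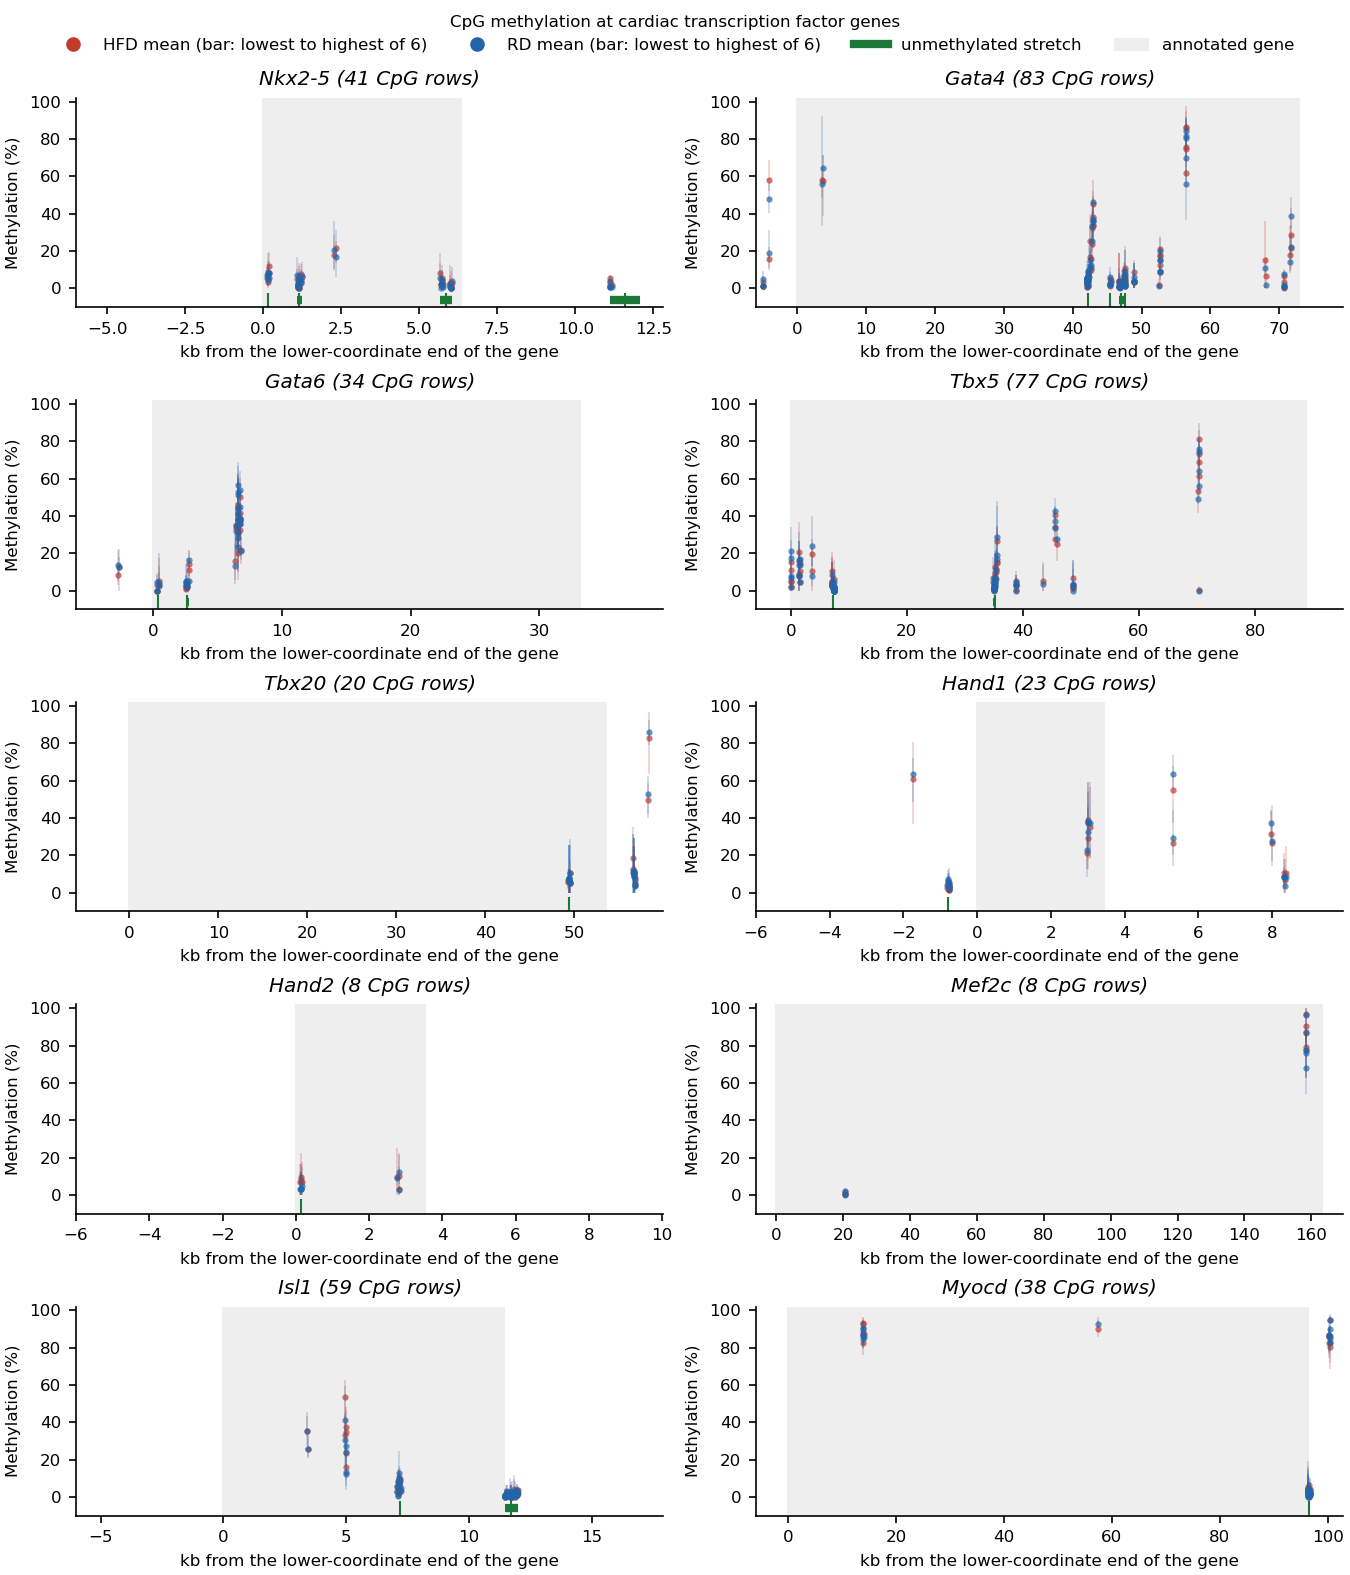
Methylation in percent at each CpG position of the 10 genes, against the distance in kb from the lower-coordinate end of the gene. Points are the means of the 6 HFD and 6 RD samples, vertical bars run from the lowest to the highest sample, grey blocks are the annotated genes, and green bars mark the 18 unmethylated stretches. The long runs near 0% at Isl1 and Myocd and the run of 5 positions above 70% at the far end of Mef2c are visible.

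An unmethylated stretch was taken as an unbroken run of at least 5 neighbouring positions, each with a 12-sample mean under 10%, and with no gap over 1 kb. By this rule 18 stretches with 234 positions touched 9 of the 10 genes or their flanks, of which 14 lay inside the gene, 1 crossed a gene end and 3 lay outside. Their spans were 60 to 967 bp, and their mean levels were 1.24 to 6.45%. The low level itself follows from the rule. Because only read fragments are seen, a span is the distance between the first and the last position read, and the unmethylated DNA can extend further.

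Nkx2-5, an early marker and driver of cardiomyocyte fate, had 38 of its 41 positions under 10% and none at 50% or more. It carried 4 stretches. The first, at chr17:26838786-26838845, had 5 positions at a mean of 6.45%, and the second, at chr17:26839749-26839899, had 13 positions at 3.15%. The next, at chr17:26844343-26844702, had 15 positions over 360 bp at 2.22%. It lay 2778 bp upstream of the listed start but inside the annotated gene, which ends at chr17:26844988. The last was the widest of the 18 stretches under this definition, with 18 positions over 967 bp (chr17:26849770-26850736) at a mean of 1.93% and a range over samples of 0.732% to 3.05%. It began 8205 bp upstream of the listed start and only 5 of its positions fell within 5 kb of the gene, so it is the least securely tied to Nkx2-5. No position of 50% or more was found within 10 kb of either end of it, and the nearest position above it was 22785 bp away at 60.5%. Between the stretches of 13 and 15 positions, 2 positions at 19.3% and 19.1% were the highest of the gene.

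Isl1, which marks second heart field progenitors and also has roles outside the heart, had 49 of 59 positions under 10%. Its main stretch held 38 positions over 512 bp (chr13:116309744-116310255), began 56 bp upstream of the gene start and had the lowest level of the 18, 1.24%. The 12 samples lay between 0.754% and 2.02% there. The 11 promoter positions above belong to this stretch. A second stretch of 6 positions at chr13:116305422-116305489 inside the gene had a mean of 5.73%, and 2 of the 6 lay 1 bp apart. Further inside, 8 positions from chr13:116301678 to chr13:116303278 lay between 14.3% and 47.6%, while every other position of Isl1 was at 11.1% or lower.

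Gata4, which works with NKX2-5 and TBX5 on cardiac promoters, had the most positions of the set, 83, with 55 under 10%, 20 at 10 to 50% and 8 at 50% or more. Its 4 stretches held 41 positions. They were 17 positions at chr14:63240935-63241280 (mean 4.51%), 5 at chr14:63244288-63244452 (3.15%), 13 over 828 bp at chr14:63245574-63246401 (3.17%) and 6 at chr14:63246459-63246573 (3.56%). The last 2 were separated by a single position, chr14:63246436, at 10.01%, and were joined into 1 stretch of 1000 bp, wider than any at Nkx2-5, when HFD female 2, HFD female 3 or RD male 2 was left out. With gaps of up to 2000 bp allowed, a Gata4 run of 2114 bp (chr14:63244288-63246401) was the widest of the set. Neil2, a DNA repair gene, overlaps 3 of the Gata4 positions at the lower-coordinate flank, which could be counted to either gene.

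Gata6, the second GATA factor of the heart, had 13 of 34 positions under 10% and 19 at 10 to 50%, the largest share of partly methylated positions among the 10 genes. Both of its stretches lay inside the gene, 5 positions at chr18:11052793-11052970 with a mean of 2.32% and 8 positions at chr18:11055059-11055249 with a mean of 3.70%. From chr18:11058897 to chr18:11059297 all 18 positions read lay between 14.4% and 52.0%. The 15 of them from chr18:11059071 on had a mean of 36.6% ± 3.56 in HFD and 40.3% ± 3.67 in RD (SD, n = 6 each).

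Tbx5, whose loss of function causes heart and forelimb defects, had 56 of 77 positions under 10%. Its first stretch held 24 positions over 376 bp (chr5:119803613-119803988) at a mean of 2.16%. The second held 16 positions over 356 bp (chr5:119831441-119831796) at 3.64%, and it overlaps the annotated gene Gm5563. At chr5:119866763-119866837 a run of 6 positions included 5 between 51.3% and 78.5%. The other of the 6, chr5:119866773, was at 0% in 11 samples and at 2.44% in HFD female 2.

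Tbx20, a T-box factor needed for chamber growth, had 12 of 20 positions under 10%. Its stretch at chr9:24770082-24770269 held 7 positions at a mean of 6.40% and lay 4034 bp inside the gene from its start. Of the 10 gene means that of Tbx20 had the largest SD over the 12 samples, 4.08 points around 14.3%. In the stretch the samples ran from 0.311% to 21.2%. Several of these 7 positions gave identical percentages in a sample, as positions on the same reads can.

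Hand1, which is most active on the left side of the early heart, had 13 of 23 positions under 10%. Only 5 of its positions lay inside the gene, and those 5 (chr11:57831694-57831765) were partly methylated at 21.9 to 38.4%. The stretch of 9 positions at chr11:57827889-57827960, mean 3.83%, lay outside the gene below its lower-coordinate end. Hand2, the partner more active in the right ventricle, had 8 positions. Of these 7 were under 10%, with a stretch of 5 at chr8:57321104-57321164 that began 121 bp after the gene start. Its mean was 5.64%, and single samples ran from 0% to 18.0%.

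Mef2c had no stretch and only 8 positions, in 2 groups. The 3 positions from chr13:83524558 to chr13:83524622, which lie 902 bp and more past the second listed start, were at 0.331%, 0.537% and 1.78%. The 5 positions from chr13:83662457 to chr13:83662528, near the far end of the gene, were at 73.6 to 96.7%. Its mean of 52.6% therefore describes neither group. Myocd, which drives smooth and cardiac muscle genes, was split as sharply, with 24 of 38 positions under 10%, 14 at 50% or more and none between. All 24 low positions formed 1 stretch over 392 bp (chr11:65269871-65270262), with a mean of 2.51%, which crossed the higher-coordinate end of the gene. The 14 methylated positions were at 81.7 to 94.7%.

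Set beside other genes, the spans were not unusual. Among 13862 autosomal protein-coding genes with at least 3 positions, 9036 (65.2%) had a stretch, and the median over those of the longest span was 303 bp. Of the 10 heart genes 9 (90%) had one, with a median of 376 bp. The longest spans were 967 bp at Nkx2-5, at the 92.4th percentile of all genes, 828 bp at Gata4 (88.9th) and 512 bp at Isl1 (78.0th). The order of the first 2 depends on the definition and on single samples, as given above for Gata4. The genes with the longest stretch closest in span to that of Nkx2-5 were Cbx3, Hnrnpa2b1 and Dusp5, each also at 967 bp, and the first 2 of these share one stretch between them. Of 30 further heart regulators listed, which included Gata5, other T-box genes, Irx genes and Mef2 paralogs, 29 had at least 3 positions, and 23 of these had a stretch, with a median longest span of 702 bp.

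**Figure D2:**
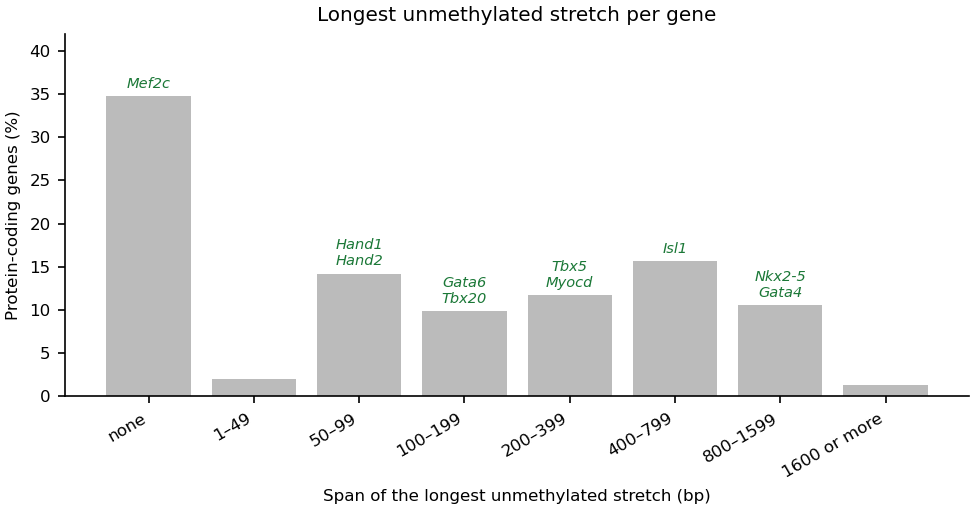
Share of 13862 protein-coding genes, in percent, by the span in bp of their longest unmethylated stretch, with the heart genes named in green above the bar of their class. Mef2c falls in the class with no stretch, and Nkx2-5 and Gata4 in the class of 800 to 1599 bp.

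The borders of the stretches took several forms. At Gata4 the border was partly methylated. Beyond the last position of the stretch at chr14:63240935-63241280, methylation was 20.3% at chr14:63241472, 11.3 to 14.5% at the next 3 positions and 24.4 to 45.8% from chr14:63241771 to chr14:63241822. The next stretch began 2466 bp further on, so that this partly methylated segment was flanked by low positions on both sides. At the second Tbx5 stretch the next 4 positions, 139 bp and more away, were at 11.4 to 27.7%. At the second Gata6 stretch the next position, 69 bp away, was at 15.3%, and the first position of 50% or more was 3838 bp away at 51.2%.

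The other borders were as follows. Above the Myocd stretch the nearest position was 3542 bp away at 85.8%, and below it the nearest was 38832 bp away at 91.5%. Below the Hand1 stretch the nearest position, 916 bp away, was at 62.4%, and above it 5 positions at 21.9 to 38.4% came before the first of 50% or more, 6067 bp away at 59.3%. For Tbx20 the next position, 9 bp away, was at 10.7%, tiles further on were at 11.2% and then 5.31%, and the first position of 50% or more was 8831 bp away at 51.2%. For the longest Gata4 stretch the first position of 50% or more was 8946 bp away at 77.7%. Between them lay the next stretch at 3.56%, 4 positions at 3.75 to 7.34% and 6 at 1.44 to 20.8% (chr14:63251514-63251582), with no steady rise. For Nkx2-5, Isl1, Tbx5 and Hand2 none was found within 10 kb of the longest stretch. Where the nearest positions are far apart, the place at which methylation rises was not read.

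**Figure D3:**
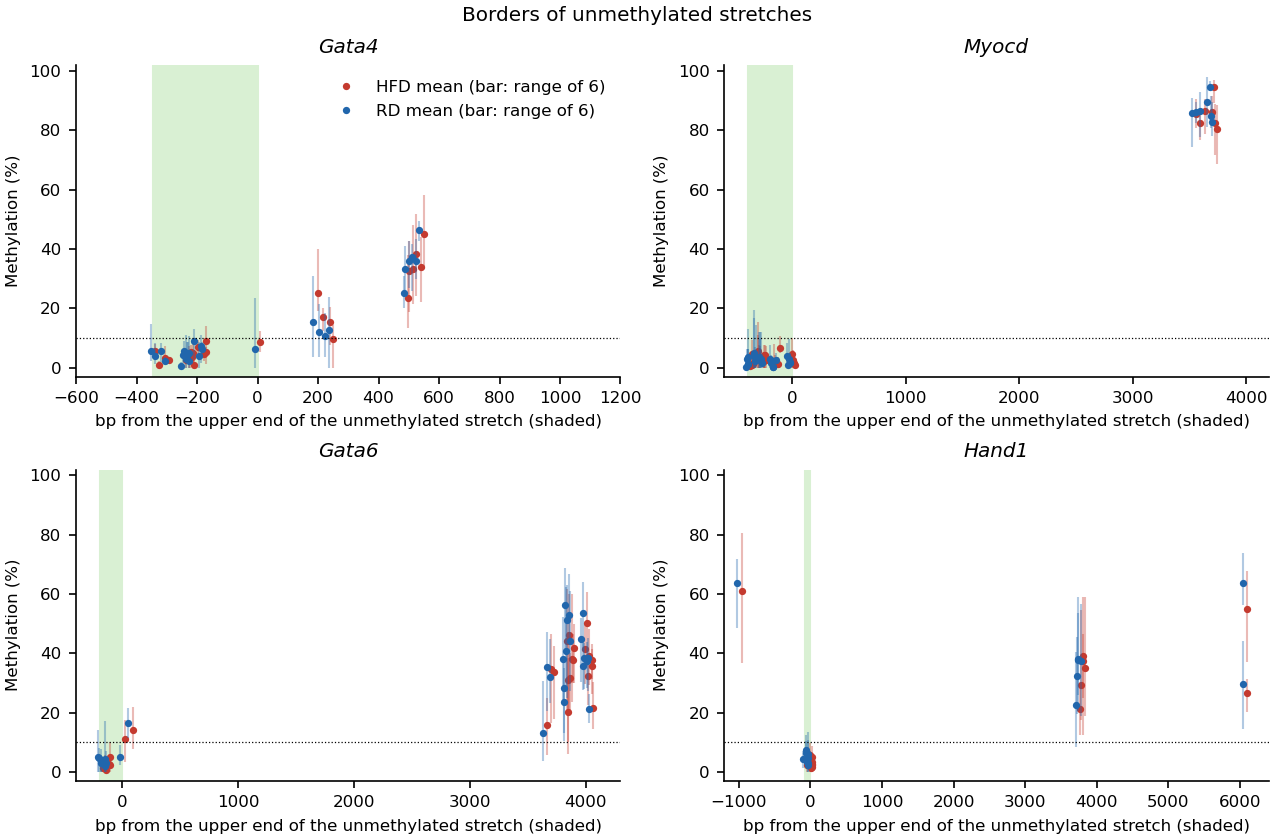
Methylation in percent around 4 unmethylated stretches (shaded), against the distance in bp from the upper end of the stretch. Points are means of 6 HFD and 6 RD samples, drawn slightly to either side of their position so that both can be seen, bars run from the lowest to the highest sample, and the dotted line is 10%. At Gata4 the positions beyond the stretch lie between 11.3% and 45.8%, and at Myocd the next position read, 3542 bp away, is at 85.8%.

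The study asked how maternal diet affects the offspring heart. None of the 10 gene means differed between the diets past the threshold, an adjusted p under 0.05 in limma over all 13862 genes with the sex of the offspring as a covariate. Of all genes, 13 (0.0938%) passed. Without adjustment none of the 10 had a p under 0.05, against 1018 genes (7.34%). Without RD female 1, 1 of the 10 (Isl1) did, but the share over all genes in that fit was not counted. Means were higher in HFD at 7 genes and lower at 3, beside 7007 higher and 6852 lower over all genes. The median difference was 0.415 percentage points, beside 0.0116 over all genes.

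Isl1 had the smallest p of the 10. Its HFD samples had a lowest, median and highest mean of 6.24%, 6.43% and 6.90%, and its RD samples 5.01%, 5.61% and 7.09%. The groups overlapped, since the highest sample was an RD one, and the difference of 0.708 points gave an unadjusted limma p of 0.0714 and an adjusted p of 0.721. The 95% interval of the sex-adjusted difference, from the same model on percentages, was −0.247 to 1.70 points. Gata6 was lower in HFD, with samples of 18.3%, 20.9% and 23.2% (lowest, median and highest) against 21.6%, 22.4% and 24.5% in RD. Here too the groups overlapped, with an adjusted p of 0.725 in limma and an interval of −3.87 to 0.145 points. At Gata4 the means were 14.8% ± 0.871 in HFD and 14.2% ± 0.273 in RD (SD, n = 6 each), and the interval was −0.376 to 1.72 points.

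The intervals show which differences the data leave possible. They were narrowest for Nkx2-5, with 4.32% ± 0.731 in HFD and 3.79% ± 0.381 in RD (interval −0.492 to 1.42 points), Isl1, and Gata4. For Myocd, with 33.8% in both groups, the interval was −1.37 to 1.39 points, and for Tbx5, with 10.9% against 10.6%, it was −1.35 to 1.89 points. They were wider for Hand1 (18.6% against 20.01%, interval −5.09 to 2.15), Mef2c (54.2% against 51.0%, −0.983 to 7.01), Hand2 (7.80% against 5.14%, −1.96 to 7.25) and Tbx20 (14.2% against 14.3%, −5.49 to 4.56). The last 2 rest on 8 and 20 positions. Leaving out 1 sample moved the difference by over 1.5 times at 6 genes. It went from 0.650 to 0.338 points at Gata4 and from 2.66 to 1.44 at Hand2 without HFD male 4, from −1.44 to −0.481 at Hand1 without RD female 2, and from 0.297 to 0.850 at Tbx5 without RD female 1. Over all single omissions Tbx5 ran from 0.0096 to 0.850 points and Hand1 from −2.38 to −0.481, while Myocd (−0.240 to 0.286) and Tbx20 (−1.25 to 1.56) changed sign. Isl1 (0.548 to 0.962), Nkx2-5 (0.410 to 0.786), Gata6 (−2.32 to −1.32) and Mef2c (2.23 to 4.49) moved less. The adjusted p-values of all 10 genes lay between 0.721 and 0.999 in limma.

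**Figure D4:**
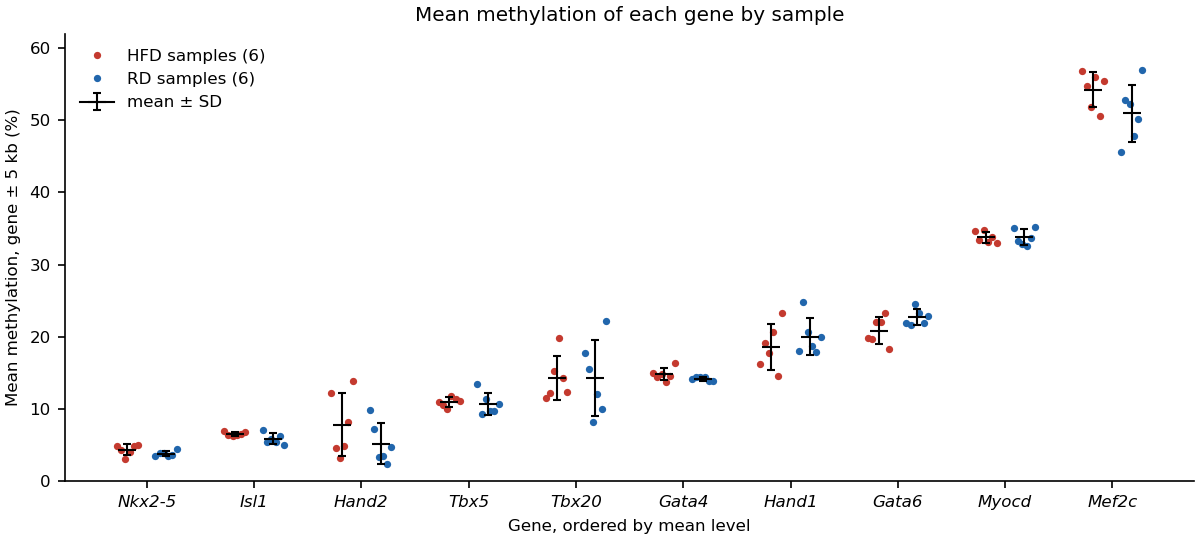
Mean methylation in percent over the positions inside or within 5 kb of each gene, with the genes ordered by level. Each point is 1 sample, 6 HFD and 6 RD per gene, and the black marks are the mean ± SD. The 2 diets overlap at every gene, from 4.05% at Nkx2-5 to 52.6% at Mef2c. Over the genome the diets did not overlap at only 92 of 13862 genes, so overlap does not set these genes apart.

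The unmethylated stretches did not differ between the diets past the threshold at any of the 18, and 0% of 9001 stretches over the genome passed it in limma. At an unadjusted p under 0.05 the counts were 0 of 18 and 529 of 9001 (5.88%). Levels were higher in HFD at 9 and lower at 9, beside 5252 higher and 3744 lower over the genome. In the main Isl1 stretch the HFD samples had a lowest, median and highest level of 0.754%, 0.997% and 1.99%, and the RD samples 0.966%, 1.13% and 2.02%, which is nearly full overlap. The Hand2 stretch had 0%, 6.57% and 18.0% in HFD against 0%, 0.5003% and 12.8% in RD, with both groups reaching down to 0%. Its difference of 4.22 points was 2.18 without HFD male 4. The 967 bp stretch at Nkx2-5 was at 2.19% ± 0.53 in HFD and 1.67% ± 0.643 in RD (SD, n = 6 each). Leaving out 1 sample moved the difference by over 1.5 times at each of the 18 stretches and turned its sign at 6, so no direction is read from single stretches. RD female 1 and RD male 2 were each the highest RD sample at 7 of the 18. Without RD female 1 HFD was higher at 11 and lower at 7. In limma 2 of 18 then had an unadjusted p under 0.05 and none was called, but the share over all stretches in that fit was not counted. Stretches drawn from the HFD samples alone numbered 19, and from the RD samples alone 16.

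A border was the mean over the positions within 2 kb outside one end of a stretch, with positions of other stretches left out. It was tested when it held at least 3 positions and its mean was 5 to 95%, which left 4 borders at these genes. None passed the threshold in limma (0% of 1806 borders over the genome), and none of the 4 had an unadjusted p under 0.05, against 118 of 1806 (6.53%). The partly methylated Gata4 border, 10 positions from chr14:63241472 to chr14:63241822, was at 27.5% ± 5.93 in HFD and 26.5% ± 3.10 in RD (SD, n = 6 each), with an interval of −4.53 to 7.21 points. Leaving out 1 sample turned the sign at each of the 4 borders. At Gata4 the difference of 0.911 points turned to −0.649 without HFD male 4 and to −0.0048 without HFD female 4. The upper Tbx5 border was at 17.1% ± 3.53 and 19.1% ± 9.48. One library set that direction: RD female 1 was at 37.6%, the other RD samples at 11.4 to 19.2%, and without it the RD mean was 15.4% and HFD was higher by 1.66 points. The other 2, above the longest Gata4 stretch and below the second Isl1 stretch, had means of 5.74% and 6.71%. Both are under the 10% limit used for the stretches, so they do not mark a rise to partly methylated DNA. The adjusted p-values were 0.968 to 0.994 in limma.

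Single positions were tested when their mean was 5 to 95%, which 185 of the 391 passed. None was called in limma, where 16 of 157524 positions over the genome (0.0102%) were. At an unadjusted p under 0.05 there were 9 (4.86%), 8 of them higher in HFD, against 10294 (6.53%) over the genome, of which 4530 were higher in HFD. Without RD female 1 the members' count was 14 and none was called. The share over all positions in that fit was not counted, so the 14 cannot be set against the 6.53%. Of the 8, 3 lie in one patch inside Isl1, described next, and can share reads. Over the 185, 94 were higher in HFD and 91 lower, beside 74246 higher and 83278 lower over the genome. In tiles of 500 bp with at least 3 positions, 0 of 25 were called against 7 of 23791 (0.0294%). An unadjusted p under 0.05 was found at 2 of 25 against 1858 (7.81%). Without RD female 1 it was found at 3 of 25, but the share over all tiles in that fit was not counted.

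The smallest p among both belonged to the partly methylated patch inside Isl1. At chr13:116303278 the HFD samples had a lowest, median and highest level of 30.4%, 36.3% and 48.5%, and the RD samples 16.4%, 25.9% and 30%. The groups did not overlap at this position, the only such one of the 185, while 759 of 157524 did not overlap over the genome. The means were 37.7% ± 6.86 and 23.9% ± 5.76 (SD, n = 6 each), and limma gave an unadjusted p of 0.00594 and an adjusted p of 0.606. Over the 6 positions of the tile (chr13:116303208-116303278) the HFD samples were at 28.4%, 31.9% and 41.0% (lowest, median and highest) and the RD samples at 17.0%, 24.5% and 33.0%. These groups overlapped, and the difference of 8.31 points had an adjusted limma p of 0.489. All 6 positions had a higher mean in HFD, but they lie close together and can share reads.

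At Gata6 the position with the smallest p, chr18:11059124, had 30%, 38.0% and 46.7% in HFD against 43.8%, 49.5% and 66.7% in RD. The means differed by −15.3 points (adjusted p = 0.654, limma), and the groups overlapped. The tile of 15 positions around it differed by −3.77 points, with an interval of −8.32 to 0.952 (adjusted p = 0.802, limma).

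At the other 8 genes the positions with the smallest p were as follows in limma. Tbx5 chr5:119797968 was at 15.8% in HFD and 7.59% in RD, Mef2c chr13:83662512 at 86.7% and 76.2%, and Gata4 chr14:63241472, the first position of that border, at 25.3% and 15.3%. Nkx2-5 chr17:26839876 was at 7.96% and 4.47%, Hand2 chr8:57321119 at 9.36% and 3.25%, and Tbx20 chr9:24777413 at 18.9% and 11.9%. Myocd chr11:65273939 (86.3% and 89.8%) and Hand1 chr11:57834027 (55.1% and 63.6%) were lower in HFD. Leaving out 1 sample moved 4 of these by over 1.5 times. The difference went from 7.01 to 3.78 points at Tbx20 without HFD male 2 (and to 10.9 without RD male 2), from 6.11 to 3.53 at Hand2 without HFD male 4, from −8.50 to −4.93 at Hand1 without HFD male 2 and from −3.47 to −1.85 at Myocd without RD male 1. Their adjusted p-values were 0.659 to 0.888, and in each the groups overlapped. Among tiles the second smallest p was that of 5 positions at chr5:119796556-119796628 in Tbx5, at 7.70% ± 2.24 in HFD and 11.01% ± 3.41 in RD (SD, n = 6 each, adjusted p = 0.609, limma). The tiles with the smallest p at the remaining 7 genes differed by 0.494 to 6.31 points where HFD was higher (Mef2c, Hand2, Gata4, Nkx2-5 and Tbx20) and by −1.83 and −1.20 points at Myocd and Hand1, with adjusted p-values of 0.752 to 0.985 in limma. Of the 10 tiles with the smallest p of their gene, 7 moved by over 1.5 times when 1 sample was left out, and those of Tbx20 (−0.838 to 5.36 points) and Hand1 (−4.64 to 1.96) changed sign. The tiles of Isl1 (6.73 to 9.94), Gata6 (−4.73 to −2.55) and Myocd (−2.51 to −1.25) did not move that far.

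Among all 391 positions, 357 differed by under 5 points between the diet means and 8 by 10 points or more. The spread depended on the level. Over all autosomal positions the central 95% of differences ran from −3.76 to 4.68 points at a mean level of 0 to 10%, and from −14.8 to 10.8 points at 30 to 40%. Of the 391 positions, 13 (3.32%) lay outside the band of their level, 11 above and 2 below it.

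**Figure D5:**
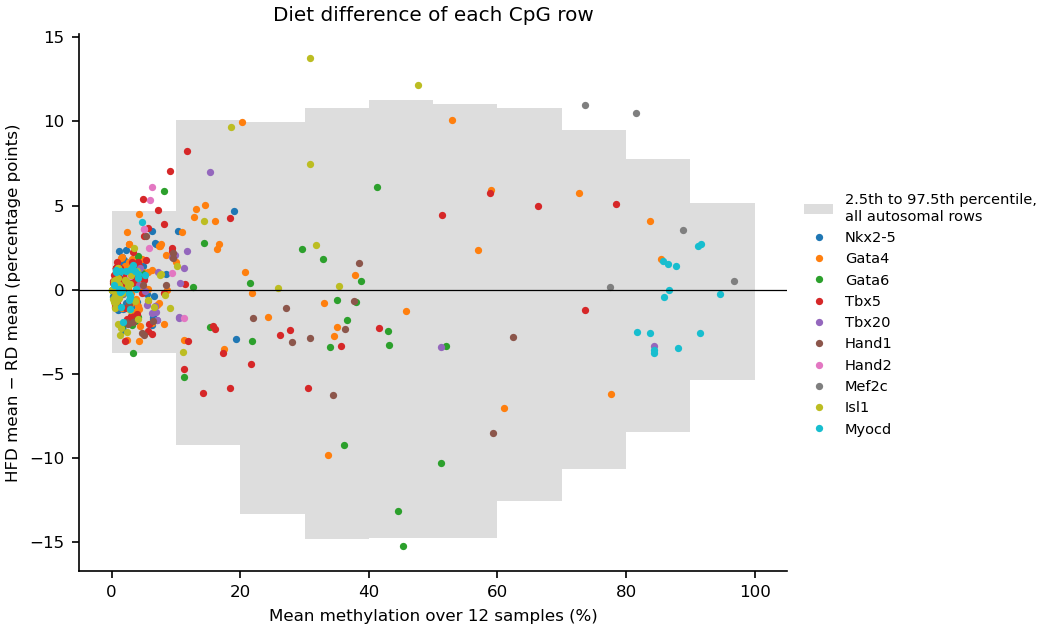
Difference between the HFD and the RD mean in percentage points at each of the 391 positions, against its mean methylation over 12 samples in percent, coloured by gene. The grey band holds the central 95% of all autosomal positions at that level, and 13 of the 391 lie outside it, with the lowest point at Gata6 (−15.3) and the highest at Isl1 (13.8).

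Whether the diet difference itself varied with sex was tested by an interaction term. It passed the threshold at none of the 10 genes and at 0% of 13862 genes over the genome in limma, and at an unadjusted p under 0.05 the counts were 0 of 10 and 688 (4.96%). The adjusted p-values for the 10 genes ran from 0.955 to 0.9999, with only 2 RD males behind the male side. Among the 29 other heart regulators none was called, with 11 higher in HFD and 18 lower and a median difference of −0.450 points. Mef2b, a MADS-box relative of Mef2c, had the smallest p, at 48.7% ± 2.48 in HFD and 45.9% ± 1.79 in RD (SD, n = 6 each, adjusted p = 0.628, limma). Zfpm2, a cofactor of GATA4, came next at 9.72% ± 0.368 and 8.88% ± 0.627 (adjusted p = 0.692, limma).

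Across the samples, 385299 to 417081 positions had a value and the mean autosomal level was 37.5 to 38.9%. Library numbers in the labels were 2 to 8 for HFD and 9 to 14 for RD, so library order and diet cannot be told apart. The tissue label could hardly be checked, because promoters of cell type markers were seldom read. At least 3 positions within 1 kb of a gene start (of either gene end where the start is not listed, as for Myod1) were measured at 1 of 11 cardiomyocyte genes (Ryr2, 2.29%), 2 of 8 endothelial genes (Egfl7, 12.9%, and Flt1, 1.49%), 1 of 7 fibroblast genes (Pdgfra, 1.62%), 1 of 7 leukocyte genes (Coro1a, 7.50%) and 1 of 4 skeletal muscle genes (Myod1, 9.66%). The HFD and RD ranges overlapped for each list, at 1.03 to 5.69% and 1.42 to 4.44% for cardiomyocytes and at 4.99 to 8.72% and 6.46 to 9.45% for endothelial cells, and the part of cell makeup in any value was not tested.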

How the data were processed

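RRBS libraries from the left ventricle of 12 mice (6 HFD, 6 RD) were analysed from 1 deposited table of percent methylation, in which rows are CpG positions and columns are samples. The authors deposited percent values without read counts, so depth is unknown and no coverage minimum or counting interval could be applied. The build is mm10 and the tools named are FastQC, Trim Galore, Bismark 0.19 and limma, per the submitters' processing notes, which give no role or order. How the strands were joined is not given in the sources used here. Of 39856 rows within promoter sequences of RefSeq GRCm38.p6, 48.6% fell on the C and 51.3% on the G of a CG, and 8 on neither.

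Gene ends, overlapping genes and promoters came from RefSeq tables of GRCm38.p6. Rates as fractions were turned into log2((rate + 0.05)/(1 − rate + 0.05)) and fitted with limma 3.58.1 (R 4.3.3; lmFit and eBayes) with diet and sex as additive terms over all 12 samples. Families were single positions and 500 bp tiles (at least 3 rows), both with means of 5 to 95%, gene means (gene with 5 kb flanks, at least 3 rows, autosomal and protein-coding), unmethylated stretches, their borders and the diet-by-sex interaction of gene means. Two-sided p-values were corrected by the Benjamini-Hochberg method within each family, with a threshold of 0.05. Intervals are 95% intervals from the same model on percentages. All 10 genes are named, each with the position and tile of smallest p, and 2 other heart regulators by smallest p. The genes, lists and tests were chosen with earlier results of these data known. Whether the replicate numbers in the labels pair the samples could not be decided. Over 13 pairs with the same number the correlation of deviations was −0.114 to 0.0577, and none exceeded 0.1. Most of these pairs set an HFD against an RD sample, which have different mothers. With 2 RD males, the deviations of one mirror those of the other.

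The fits were tested on simulated rates with 200 shifted features. A shift of 1 on the log2 ratio scale was recovered at 0 of 200 among 157524 positions, 122 among 23791 tiles, 177 among 13862 gene means, 127 among 9001 stretches, 145 among 1806 borders and 114 for the interaction. A shift of 2 was recovered at 101, 190, 179, 142, 185 and 159. Single positions therefore had little power. The coefficients of the 10 gene means, −0.135 (Gata6) to 0.348 (Hand2), were smaller than either shift. Power at that size was not tested. Alternatives covered the offset, untransformed rates, variance moderation, a replicate block, the sex term, missing values, limits on the mean, tile and flank sizes, the definition of stretches and borders, and leaving out each sample. Figures were drawn with matplotlib 3.10.9.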

Additional observations from a re-analysis of the deposited data

Results flagged for a closer look

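Within each diet, the highest or lowest of the 6 values was marked when it stood far from the nearest of the other 5 relative to the whole range. This marked 6 of the 96 sets of values, where chance would give about 4.8. RD female 1 was marked at 2 unmethylated stretches, and was the highest RD sample at 7 of the 18 in all, as was RD male 2. It was at 8.20% in the Tbx5 stretch of 16 positions (chr5:119831441-119831796), where the other RD samples were at 0.985 to 3.00%, and at 21.2% in the Tbx20 stretch of 7 positions (chr9:24770082-24770269), where they were at 0.311 to 6.95%. Without it the HFD minus RD difference went from 1.33 to 2.38 points in the Tbx5 stretch and from −1.18 to 1.66 points in the Tbx20 stretch. HFD male 2 was at 24.3% in the Tbx20 tile of 7 positions at chr9:24777413-24777481, against 8.08 to 10.8% in the other HFD samples, and at 35.0% at its first position, chr9:24777413, against 10.53 to 19.0%. Without it the difference went from 1.62 to −0.838 points in the tile and from 7.01 to 3.78 points at the position. HFD male 3 was at 26.5% at Tbx5 chr5:119797968, against 10.53 to 15.8%. HFD male 4 was at 40.0% at Gata4 chr14:63241472, the first position of the partly methylated border, against 19.2 to 26.1%. Without these samples the differences went from 8.22 to 6.08 points and from 9.99 to 7.05 points. Each of these 3 single positions was examined because it had the smallest diet p of its gene.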

How the results depend on the processing

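Counts of called features stayed at 0 for the 10 genes in all 130 alternatives of the 6 tests. The number of unmethylated stretches, 18, was 14 and 20 at rate limits of 5% and 20%, 28 with at least 3 positions, where all 10 genes had one, and 9 with at least 10 positions, where 5 genes had one. Without each sample in turn it was 17 to 19. The widest span, 967 bp at Nkx2-5, was 512 bp at Isl1 with the 5% limit, 1114 bp at another place in Nkx2-5 (chr17:26838786-26839899) with the 20% limit, on RD samples alone or without HFD female 4, 1000 bp at Gata4 without HFD female 2, HFD female 3 or RD male 2, and 2114 bp at Gata4 with gaps of up to 2000 bp. Of 200 alternatives of the gene means 17 changed sign and none was called (lowest adjusted p = 0.467, limma), and of 396 for the named positions and tiles 4 changed sign (lowest 0.339). On the log2 ratio scale Tbx20 went from −0.0097 to 0.0017 with an offset of 0.01 and to 0.0257 without the sex term, and Myocd from 0.00092 to −0.0312 with missing values allowed. Leaving out 1 sample gave −0.17 to 0.15 for Tbx20, −0.0137 to 0.0260 for Myocd, −0.0029 to 0.0868 for Tbx5 (main 0.03) and −0.26 to 0.10 for the Hand1 tile at chr11:57831694 (main −0.07). The cause was not tested.

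With the replicate number as a block, which the labels do not tie to litters, the Tbx20 coefficient was 0.0392, and the count of called features was 0 in each of the 6 tests. In the check of pairing, which could not decide whether the numbers mark litters, same-numbered samples had a median correlation of 0.00602, and other pairs −0.00384. Without read counts, the noise of a single position cannot be parted from differences between animals.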

Other observations

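In Tbx5, chr5:119866773 was at 0.203% while its neighbours, chr5:119866768 and chr5:119866802, were at 58.8% and 78.5%. This position was chosen after its value was seen.

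Annotated genes other than the 10 overlapped 71 of the 391 positions, among them Gm29824 above Tbx20 (12 positions), Gm32915 at Hand1 (8) and Gata6os at Gata6 (2). Values there belong to the shared DNA and cannot be given to either gene alone.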
